A study of Mus musculus with 12 samples.

Results

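The Wnt ligands, their receptors and their secreted antagonists were followed through 4 mouse adipose depots. Members were chosen by gene symbol alone, as the Wnt, R-spondin (Rspo), Frizzled (Fzd), Sfrp and Dkk genes with Lrp5, Lrp6 and Wif1. This gave 44 of the 47729 genes listed: 19 Wnt ligands, 4 R-spondins, 10 Frizzled receptors, 2 LRP co-receptors, 4 Sfrp antagonists and 5 further antagonists (the Dkk genes and Wif1). Bulk RNA sequencing of ribosomal-RNA-depleted total RNA had been done on 12 libraries of male wild-type C57BL/6J mice fed a high-fat rodent diet. The study's design text gives 6 to 10 weeks as their age, without saying at which step. There were 3 libraries each of interscapular brown fat (BAT), retroperitoneal white fat (RWAT), inguinal white fat (IWAT) and epididymal white fat (EWAT). All 4 groups had been surgically denervated, so the comparisons are between depots of denervated fat in obese mice, and the effect of denervation was not tested. No label ties the replicates to separate animals, and p-values therefore describe the spread between these libraries alone.

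Wnt proteins are secreted, lipid-modified signals. They bind a Frizzled receptor together with LRP5 or LRP6, which halts the destruction of β-catenin and lets it act with TCF/LEF factors on target genes; other Wnt proteins act through branches that do not need β-catenin. R-spondins raise the amount of Frizzled at the cell surface, Sfrp proteins and Wif1 bind Wnt proteins outside the cell, and Dkk1 and Dkk2 act on the LRP co-receptors. In adipose tissue, β-catenin signalling, for example by Wnt10b, is known to hold precursor cells back from becoming fat cells, and Wnt5a and Sfrp5 have been studied as an opposing pair in obesity.

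Library totals ran from 12933516 to 21106554 estimated counts. Levels between libraries are given as CPM, read counts relative to the library total, scaled by TMM factors, and levels between genes as TPM, which allows for transcript length. The depots matched their labels only in part. Zic1, a brown fat lineage gene, was at 7.34, 16 and 14.2 CPM in BAT 1 to 3, against at most 0.908 CPM in any white library. Ucp1, the heat-producing protein of brown fat, was at 1488 CPM in BAT 1 but at 0.253 and 1.70 CPM in BAT 2 and BAT 3. Summed transcripts of 10 adipocyte markers were lowest in EWAT 1 (1494 CPM) and BAT 2 (4798 CPM), and skeletal muscle transcripts stood out in RWAT 1 and RWAT 3 (648 and 3411 CPM over 12 markers, against at most 178 CPM in any other library). Bulk values cannot separate fewer cells of a type from less RNA per cell.

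Of the 44 members, 29 passed the filter on low counts and were tested. The other 15 reached at most 1.16 CPM in any library (Fzd10 in IWAT 2) and at most 70 counts over all 12 libraries. They were Wnt1, Wnt3, Wnt3a, Wnt7a, Wnt7b, Wnt8a, Wnt8b, Wnt9b, Wnt10a, Rspo2, Rspo4, Fzd9, Fzd10, Dkk1 and Dkk4. Wnt3a and Wnt7a had no count in any library, where 3 counts would correspond to 0.134 to 0.227 CPM. A member could pass through one high depot alone, so counts among the 29 are not counts over the whole family.

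**Figure D1:**
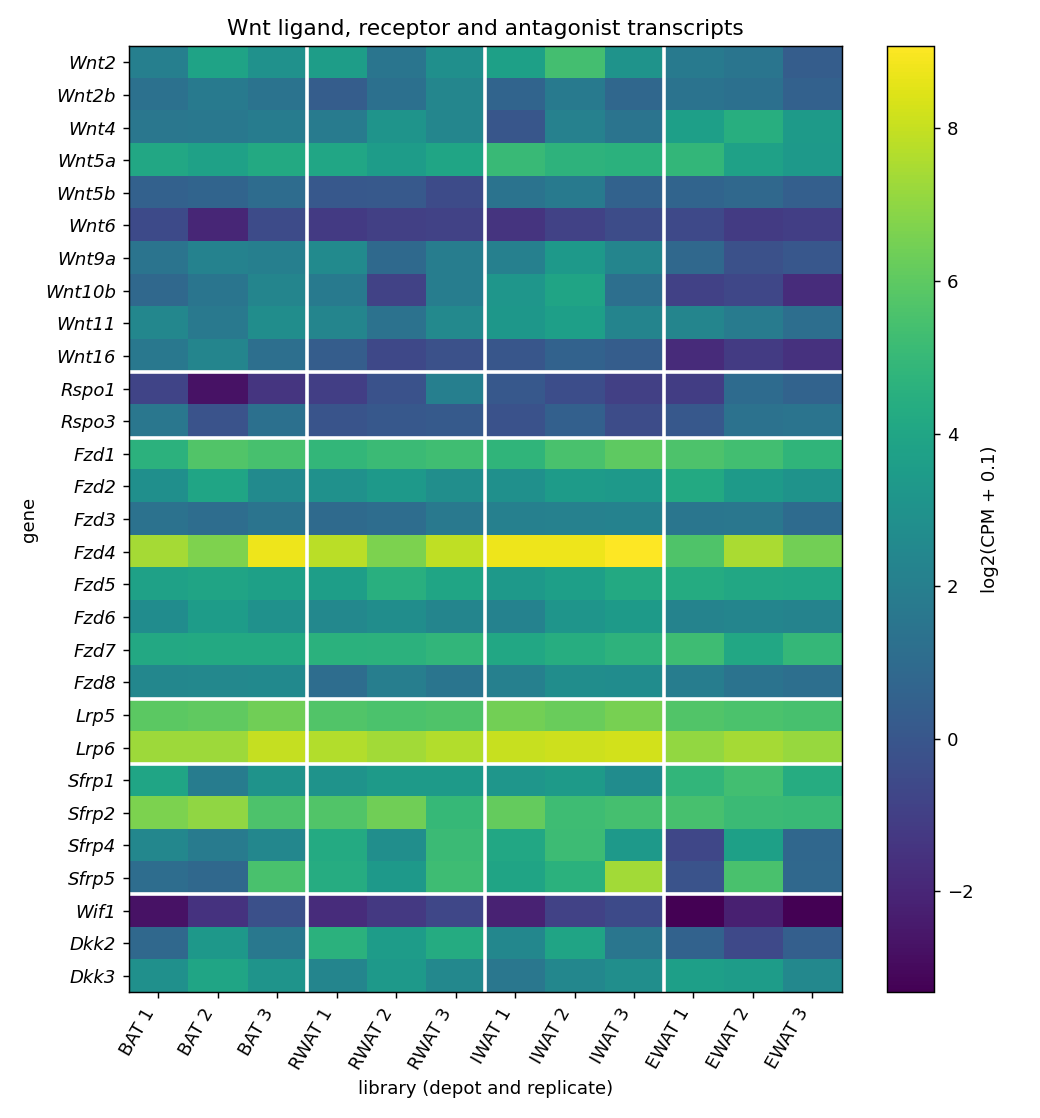
Level of the 29 tested members, as log2(CPM + 0.1), in each of the 12 libraries (columns, by depot), with genes in rows grouped by role. Fzd4, Lrp5 and Lrp6 are bright in every library (at least 44.5 CPM), and Wif1 is among the dark ones, at 0 in EWAT 1 and EWAT 3.

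On the TPM scale the receptor side and one antagonist family stood above the ligands. The summed mean level over the 12 libraries was 70.8 TPM for the 10 Frizzled genes, 50.8 TPM for Lrp5 and Lrp6 and 74.2 TPM for the 4 Sfrp genes. It was 25.2 TPM for all 19 Wnt ligands, 5.84 TPM for the Dkk genes with Wif1 and 1.49 TPM for the R-spondins. The single genes with the highest mean were Sfrp2 (42.4 TPM), Fzd4 (42.1 TPM) and Lrp6 (36.3 TPM), while the highest ligand, Wnt5a, averaged 6.12 TPM. The deposited TPM of a library moves with its share of small structural RNAs: Rn7s1 and Rn7s2 took from 8.41% (IWAT 2) to 46.9% (EWAT 2) of all TPM. TPM was therefore used for the order of genes and for shares within a library, and CPM for differences between depots.

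Tests of the 7 comparisons used edgeR's quasi-likelihood F test, 2-sided, with Benjamini-Hochberg adjustment over all 18942 genes tested and a threshold of 0.05. Log2 fold changes are given ± SE, and a positive value means a higher level in the depot named first. In IWAT against EWAT, 10 of the 29 tested members passed, 8 higher and 2 lower, which is 34.5% of the tested members beside 9.03% of all genes tested (4.43% higher and 4.6% lower). Only 1 member passed in BAT against the 3 white depots combined (0.0528% of all genes tested) and in BAT against EWAT (0.0845%), and it was Wnt16 both times. No member passed in the remaining 4 comparisons, in which 5 genes at most passed among all those tested.

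**Figure D2:**
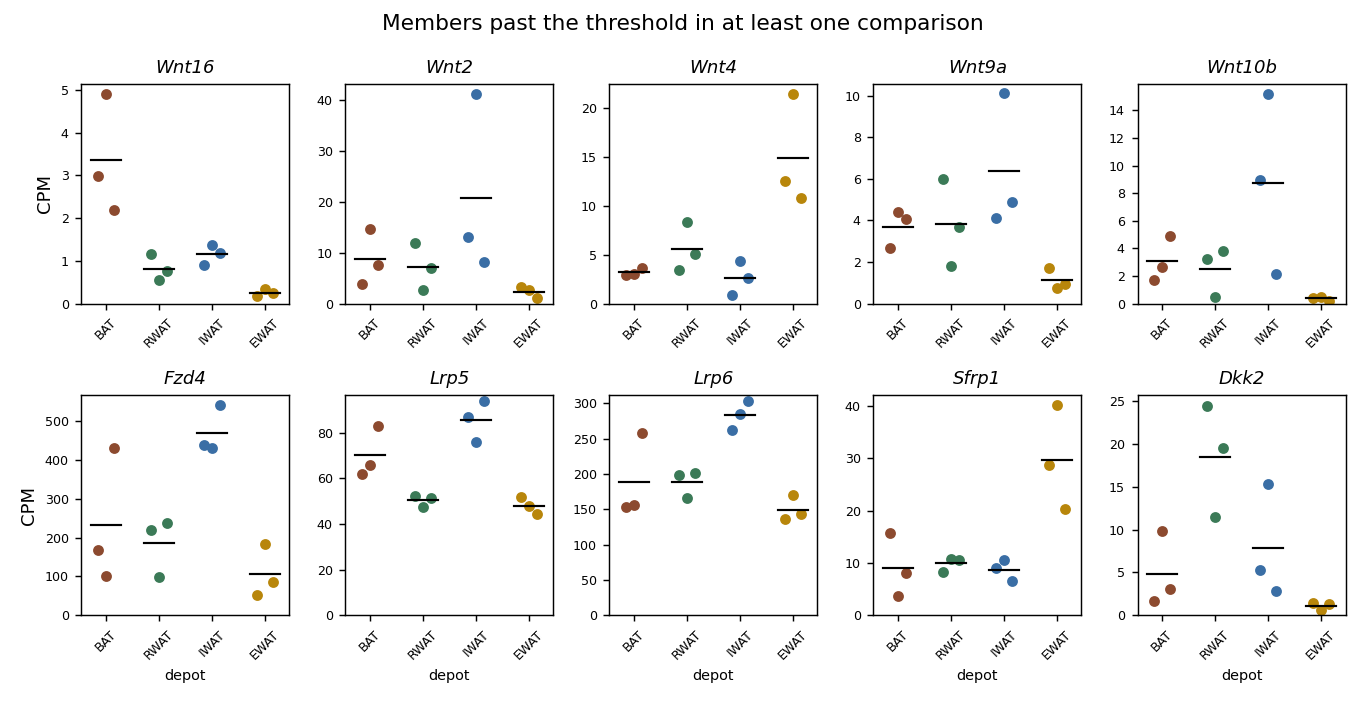
CPM of the 10 members past the threshold in at least 1 comparison, with 1 point per library (3 per depot), a bar for the depot mean and a linear axis starting at 0 for each gene. Wnt16 is highest in the 3 BAT libraries (2.19 to 4.91 CPM), and Wnt4 and Sfrp1 are highest in the 3 EWAT libraries (10.8 to 21.5 CPM and 20.3 to 40.2 CPM).

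Among the ligands, only Wnt16 passed in BAT against the white depots combined, and it did not pass against IWAT or RWAT alone. Wnt16 encodes a Wnt protein best known for its role in cortical bone. Its level was 2.98, 4.91 and 2.19 CPM in BAT 1 to 3 and 1.16, 0.545 and 0.757 CPM in RWAT 1 to 3. It was 0.914, 1.38 and 1.18 CPM in IWAT 1 to 3, and 0.190, 0.342 and 0.244 CPM in EWAT 1 to 3. All 3 BAT libraries lay above all 9 white libraries in CPM, the 3 EWAT libraries lay below all others, and RWAT and IWAT overlapped. These are low levels, resting on 40 to 97 counts in BAT and 4 to 6 counts in EWAT.

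Against the mean of the white depots, Wnt16 was higher in BAT by 2.41 ± 0.32 on the log2 scale (3.36 ± 1.40 CPM in BAT, SD, n = 3, and 0.745 ± 0.440 CPM in the white depots, SD, n = 9; edgeR adjusted p = 0.0303). The libraries of BAT and the white depots did not overlap for this gene and for 0.443% of all genes tested. Against EWAT the difference was 3.68 ± 0.48 (edgeR adjusted p = 0.021), which is 12.8-fold. Against IWAT it was 1.53 ± 0.42 and against RWAT 2.02 ± 0.43, and neither passed (edgeR adjusted p = 0.289 and 0.991). Wnt16 was at 2.98 CPM in BAT 1, the library rich in Ucp1, and at 4.91 and 2.19 CPM in the BAT libraries nearly without it. Without BAT 1 the log2 difference from EWAT was 3.75 (edgeR adjusted p = 0.0741).

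The Wnt16 call against the white depots was at the edge of what 3 libraries per depot can show. It was lost when BAT 1, BAT 3, RWAT 2, RWAT 3 or any single IWAT or EWAT library was left out, with log2 fold changes still between 2.03 and 2.64 over all 12 such fits, and on the TPM scale the BAT and IWAT libraries overlapped. The call against EWAT was lost without BAT 1, BAT 3 or any single EWAT library.

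The ligands formed the largest group of members that differed between the subcutaneous and the epididymal depot. They were also the largest class tested, at 10 of the 29 tested members, so their number is to be read against class size. Wnt2, Wnt9a, Wnt10b and Wnt16 were higher in IWAT than in EWAT, and Wnt4 was lower. The other 5 tested ligands, Wnt2b, Wnt5a, Wnt5b, Wnt6 and Wnt11, did not pass, with log2 fold changes between 0.05 and 1.36.

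Wnt10b, the ligand best known for blocking fat cell formation, showed the widest gap. It was at 8.95, 15.2 and 2.18 CPM in IWAT 1 to 3, against 0.428, 0.513 and 0.195 CPM in EWAT 1 to 3, and at 1.70 to 4.92 CPM in BAT and 0.454 to 3.78 CPM in RWAT. All IWAT libraries were above all EWAT libraries, and the IWAT libraries were spread widely. On the log2 scale the fold change was 4.52 ± 0.91 (edgeR adjusted p = 0.0221), with an EWAT level that rests on 4 to 9 counts per library.

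Wnt2, a ligand of the β-catenin branch, was at 13.1, 41.2 and 8.11 CPM in IWAT 1 to 3, against 3.23, 2.74 and 1.17 CPM in EWAT 1 to 3. The depots did not overlap, and IWAT 2 was far above the other IWAT libraries. Wnt2 had a log2 fold change of 3.13 ± 0.76 (edgeR adjusted p = 0.0333). BAT libraries ranged from 3.94 to 14.6 CPM and RWAT libraries from 2.77 to 12 CPM. Both overlapped IWAT, and RWAT but not BAT overlapped EWAT.

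Wnt9a, known for its part in joint formation, was at 4.11, 10.1 and 4.88 CPM in IWAT 1 to 3, against 1.71, 0.741 and 0.927 CPM in EWAT 1 to 3. Again no libraries overlapped, and IWAT 2 was the highest (log2 fold change 2.49 ± 0.53, edgeR adjusted p = 0.0246). Wnt16 differed in the same direction by 2.15 ± 0.47 (edgeR adjusted p = 0.0269).

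Wnt4, a ligand with a central part in kidney and female gonad development, was the one ligand past the threshold that was lower in IWAT. It was at 0.914, 4.32 and 2.65 CPM in IWAT 1 to 3, against 12.6, 21.5 and 10.8 CPM in EWAT 1 to 3. The BAT libraries, at 2.93 to 3.61 CPM, and the RWAT libraries, at 3.43 to 8.36 CPM, all lay below the EWAT libraries too. The log2 fold change in IWAT against EWAT was −2.49 ± 0.52 (edgeR adjusted p = 0.0228). In BAT against EWAT it was −2.22 ± 0.51 and in RWAT against EWAT −1.41 ± 0.49, and neither passed (edgeR adjusted p = 0.154 and 0.842).

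Upstream sequences are shown for Wnt16, Wnt10b and Wnt9a, which are among the ligands that were higher in IWAT than in EWAT. Wnt2 was higher too but is not shown, so the motif matches below do not cover it. Each is the 248 bases that end 2 bases before the gene's RefSeq start, on GRCm38.p6, read 5′ to 3′ on the strand of the gene. Capitals mark matches to the motifs searched.
Wnt16, chr6:22287977-22288224, plus strand: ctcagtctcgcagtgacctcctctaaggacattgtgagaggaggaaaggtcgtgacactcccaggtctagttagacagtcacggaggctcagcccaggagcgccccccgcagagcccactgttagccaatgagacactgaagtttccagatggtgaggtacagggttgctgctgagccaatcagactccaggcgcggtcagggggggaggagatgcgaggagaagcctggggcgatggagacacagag
Wnt10b, chr15:98778153-98778400, minus strand: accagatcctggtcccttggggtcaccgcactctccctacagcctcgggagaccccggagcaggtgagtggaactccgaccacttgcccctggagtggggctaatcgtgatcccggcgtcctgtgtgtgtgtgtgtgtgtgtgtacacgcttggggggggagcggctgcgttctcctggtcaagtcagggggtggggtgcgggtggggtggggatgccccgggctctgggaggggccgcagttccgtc
Wnt9a, chr11:59306680-59306927, plus strand: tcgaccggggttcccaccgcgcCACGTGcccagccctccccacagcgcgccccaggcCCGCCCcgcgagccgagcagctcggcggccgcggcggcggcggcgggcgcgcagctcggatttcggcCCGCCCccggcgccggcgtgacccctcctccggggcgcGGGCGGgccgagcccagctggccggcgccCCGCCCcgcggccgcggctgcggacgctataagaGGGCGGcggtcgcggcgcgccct
The motifs searched on both strands were the TCF/LEF core CTTTGAT, the TATA box TATAAA, the GC box GGGCGG and the E-box CACGTG. None of the 3 windows held CTTTGAT or TATAAA, which occur in 3.19% and 12.3% of the 32851 RefSeq promoters cut to the same length. Wnt9a held 5 GC boxes (a motif found in 32.5% of promoters) and 1 E-box (5.97%), and Wnt16 and Wnt10b held neither. Base composition differed as well: Wnt9a was 84.3% G or C with 48 CpG pairs, Wnt10b 66.9% with 14 and Wnt16 59.3% with 9, beside medians of 52.4% and 6 over all promoters. A match or its absence describes these letters only.

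Several Wnt genes lie beside another Wnt gene in the genome. Wnt10b lies 11.7 kb from Wnt1 on chromosome 15 (GENCODE M21, GRCm38), and Wnt1 did not exceed 0.401 CPM in any library. Wnt9a lies 16.2 kb from Wnt3a on chromosome 11, and Wnt3a had no count. Wnt6, at 0.152 to 0.647 CPM, lies 6.2 kb from Wnt10a, which did not exceed 0.106 CPM, and in the pair of Wnt3 and Wnt9b, 24.3 kb apart, both stayed below 0.3 CPM.

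Shares within a library describe the ligand makeup of each depot apart from its scale. Wnt5a, the main ligand of the branch without β-catenin, made up 25.2 ± 8.3% of all ligand TPM in BAT, 23.5 ± 2.9% in RWAT, 24.5 ± 9.4% in IWAT and 33.5 ± 9.3% in EWAT (SD, n = 3 libraries each). Wnt11, another such ligand, made up 15.6% to 19.1% of ligand TPM in the mean of each depot. Wnt2 made up 25.0 ± 10.5% in IWAT and 7.23 ± 1.19% in EWAT. Wnt4 made up 1.98 ± 1.17% in IWAT and 25.9 ± 8.4% in EWAT, where it was second to Wnt5a. Wnt16 made up 10.4 ± 3.9% in BAT and 1.85 ± 1.13% in EWAT. Shares were not tested.

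**Figure D3:**
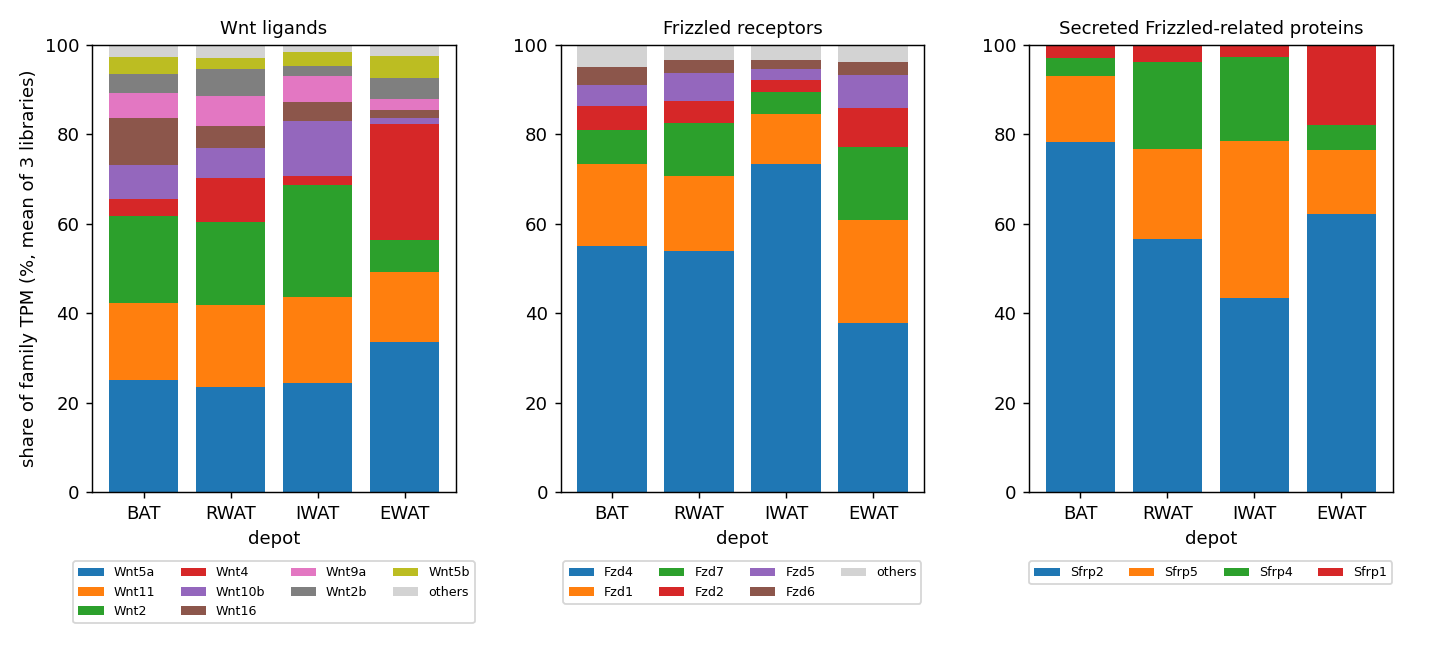
Share of each gene in the summed TPM of its family (y axis, %, mean of 3 libraries) in BAT, RWAT, IWAT and EWAT, for Wnt ligands, Frizzled receptors and Sfrp antagonists. Wnt4 fills 25.9% of the ligand bar in EWAT and 1.98% in IWAT, and Fzd4 fills 73.3% of the Frizzled bar in IWAT and 37.8% in EWAT.

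Wnt5a itself was at 17.1, 13.5 and 18.5 CPM in BAT 1 to 3 and at 16.1, 11.3 and 15.5 CPM in RWAT 1 to 3. It was at 34.1, 26.1 and 24.5 CPM in IWAT 1 to 3 and at 29.8, 13.6 and 10.4 CPM in EWAT 1 to 3. All IWAT libraries were above all BAT and RWAT libraries, and the EWAT libraries were split, with EWAT 1 among the IWAT values. The log2 fold change was −0.79 ± 0.34 in BAT against IWAT and −0.98 ± 0.35 in RWAT against IWAT, and neither passed (edgeR adjusted p = 0.396 and 0.183).

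Wnt11 was at 3.14 to 6.57 CPM in BAT, 2.5 to 5.60 CPM in RWAT, 4.70 to 12.8 CPM in IWAT and 2.15 to 4.85 CPM in EWAT. It passed in no comparison (log2 fold change 1.36 ± 0.47 in IWAT against EWAT, edgeR adjusted p = 0.0822). Wnt5b, a close relative of Wnt5a, was at 0.605 to 0.999 CPM in RWAT and 1.41 to 3.30 CPM in IWAT, with no overlap (log2 fold change −1.48 ± 0.39, edgeR adjusted p = 0.141). Wnt5a, Wnt5b and Wnt11 overlap a gene on the other strand in GENCODE M21. Strand-specific counting is not given in the sources used here, so their counts may hold reads of that gene.

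The R-spondins were the least abundant class. Rspo3, which is known as an R-spondin of vessels and stroma, was at 2.93, 0.810 and 2.30 CPM in BAT 1 to 3. It was at 0.821 to 1.06 CPM in RWAT, 0.647 to 1.29 CPM in IWAT and 0.951 to 2.64 CPM in EWAT. Rspo1 was at 0.0506 to 0.479 CPM in BAT, 0.386 to 4.01 CPM in RWAT, 0.412 to 0.980 CPM in IWAT and 0.381 to 1.94 CPM in EWAT.

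Rspo3 made up 82.0 ± 4.2% of R-spondin TPM in BAT (SD, n = 3 libraries per depot). It made up 34.8 ± 21.0% in RWAT, 38.5 ± 4.2% in IWAT and 47.7 ± 6.6% in EWAT. In RWAT 1 to 3 the share was 55.3, 35.9 and 13.3%. Rspo1 rests on 9.01, 1 and 5.01 counts in BAT 1 to 3, and on 7.59, 17 and 53.1 counts in RWAT 1 to 3. Neither gene passed in any comparison: for Rspo1 in BAT against RWAT the log2 fold change was −2.63 ± 0.98 (edgeR adjusted p = 1.0). Rspo2 was at most 0.267 CPM and was not tested. Rspo1, Rspo3 and Rspo4 overlap antisense genes.

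Of the Frizzled receptors, Fzd4 was the most abundant by TPM in the mean of every depot, and it alone passed the test. Fzd4 is a receptor for Wnt proteins and for Norrin, known for its part in vessel growth. It was at 438, 431 and 542 CPM in IWAT 1 to 3, against 51.5, 183 and 86.9 CPM in EWAT 1 to 3. It was at 168, 101 and 431 CPM in BAT 1 to 3 and at 220, 98.9 and 238 CPM in RWAT 1 to 3.

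IWAT did not overlap with EWAT or RWAT, while BAT 3 reached the IWAT level. The log2 fold change was 2.14 ± 0.58 in IWAT against EWAT (edgeR adjusted p = 0.0451) and −1.34 ± 0.57 in RWAT against IWAT, which did not pass (edgeR adjusted p = 0.228). Fzd4 made up 73.3 ± 4.4% of Frizzled TPM in IWAT and 37.8 ± 17.8% in EWAT. Within a library, Fzd4 was 5.25 to 9.86 times as abundant as Fzd1 by TPM in IWAT and 0.663 to 2.84 times in EWAT.

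Fzd1, the second Frizzled by mean TPM, was at 25.0 to 52.7 CPM in BAT, 29.7 to 38.1 CPM in RWAT, 27.6 to 64.1 CPM in IWAT and 27.7 to 48.2 CPM in EWAT, with every depot overlapping. Fzd7 was at 17.8 to 18.4 CPM in BAT, 24.0 to 28.4 CPM in RWAT, 17.3 to 25.8 CPM in IWAT and 17.0 to 37.9 CPM in EWAT. The BAT libraries were all below the RWAT libraries, with a log2 fold change of −0.50 ± 0.26 (edgeR adjusted p = 1.0). Fzd2, Fzd3, Fzd5, Fzd6 and Fzd8 did not pass in any comparison. The nearest, named here after its value was seen, was Fzd8 in IWAT against EWAT, at 4.18, 6.59 and 6.53 CPM in IWAT 1 to 3 and 3.66, 2.57 and 2.25 CPM in EWAT 1 to 3 (log2 fold change 1.03 ± 0.32, edgeR adjusted p = 0.0618).

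Both LRP co-receptors, the partners of Frizzled in the β-catenin branch, were higher in IWAT than in EWAT, by less than 2-fold. Lrp5 was at 86.8, 76.0 and 94.0 CPM in IWAT 1 to 3, against 51.7, 48.1 and 44.5 CPM in EWAT 1 to 3. Lrp6 was at 263, 286 and 303 CPM in IWAT 1 to 3, against 136, 170 and 143 CPM in EWAT 1 to 3. In CPM, for both genes the depots were well apart and the libraries of a depot were close to each other. On the TPM scale the depots overlapped for Lrp5, with IWAT 1 below EWAT 1, but not for Lrp6.

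The log2 fold change of Lrp5 was 0.83 ± 0.16 (1.78-fold, edgeR adjusted p = 0.0201) and that of Lrp6 was 0.92 ± 0.23 (1.90-fold, edgeR adjusted p = 0.0354). Both genes lost the call in all limma fits of TPM, and when a log2 fold change of at least 1 was required. Lrp5 was at 62.2, 65.8 and 83.2 CPM in BAT and at 52.3, 47.6 and 51.5 CPM in RWAT. In RWAT against IWAT the libraries did not overlap, and the log2 fold change of −0.76 ± 0.16 did not pass (edgeR adjusted p = 0.125). Lrp6 was at 153 to 259 CPM in BAT and 165 to 202 CPM in RWAT. By TPM, Lrp6 was 2.12 ± 0.25 times Lrp5 in BAT, 3.00 ± 0.13 times in RWAT, 2.55 ± 0.27 times in IWAT and 2.5 ± 0.39 times in EWAT (SD, n = 3 each), so the ratio of the pair was highest in RWAT.

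Sfrp1, a secreted Wnt-binding antagonist, was, like Wnt4, highest in EWAT. It was at 9.01, 10.6 and 6.47 CPM in IWAT 1 to 3, against 28.8, 40.2 and 20.3 CPM in EWAT 1 to 3. The BAT libraries (15.6, 3.65 and 8.04 CPM) and the RWAT libraries (8.31, 10.8 and 10.6 CPM) were also all below the EWAT libraries. In IWAT against EWAT the log2 fold change was −1.77 ± 0.45 (edgeR adjusted p = 0.0377). It was −1.71 ± 0.45 in BAT against EWAT and −1.59 ± 0.44 in RWAT against EWAT, and neither passed (edgeR adjusted p = 0.197 and 0.602).

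Sfrp2, the most abundant antagonist, was at 101, 132 and 48.4 CPM in BAT 1 to 3 and at 52.2, 83.6 and 31.5 CPM in RWAT 1 to 3. It was at 71.7, 37.6 and 43.1 CPM in IWAT 1 to 3 and at 43.9, 35.1 and 33.6 CPM in EWAT 1 to 3. The BAT libraries were all above the EWAT libraries, by 1.32 ± 0.41 on the log2 scale, without passing (edgeR adjusted p = 0.286). An antisense gene overlaps Sfrp2.

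Sfrp5, the antagonist studied beside Wnt5a in obesity, varied more within depots than between them. It was at 2.08, 1.72 and 45.6 CPM in BAT 1 to 3, 20.7, 10.5 and 36.9 CPM in RWAT 1 to 3, 15, 24.2 and 167 CPM in IWAT 1 to 3, and 0.809, 45.9 and 1.76 CPM in EWAT 1 to 3. One library of BAT, IWAT and EWAT each was far above the others of its depot, and all depots overlapped. In IWAT against EWAT the log2 fold change was 2.1 ± 1.56 (edgeR adjusted p = 0.405).

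Sfrp4 was at 5.32, 3.49 and 5.31 CPM in BAT 1 to 3, below all RWAT libraries (6.86 to 35.3 CPM) and all IWAT libraries (10.5 to 36.5 CPM). In EWAT 1 to 3 it was at 0.523, 13.0 and 1.66 CPM. The log2 fold change was −2.19 ± 0.95 in BAT against IWAT (edgeR adjusted p = 0.395). For Sfrp4 and Sfrp5 alike, EWAT 2 was the highest EWAT library.

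Dkk2, which binds the LRP co-receptors, had its highest mean in RWAT. It was at 24.5, 11.5 and 19.5 CPM in RWAT 1 to 3 and at 5.29, 15.3 and 2.82 CPM in IWAT 1 to 3, against 1.38, 0.570 and 1.27 CPM in EWAT 1 to 3. BAT libraries were at 1.70, 9.83 and 3.06 CPM. RWAT lay above BAT and EWAT without overlap, and IWAT lay above EWAT. RWAT and IWAT overlapped, with IWAT 2 above RWAT 2. The highest libraries, RWAT 1 and RWAT 3, were also those with skeletal muscle transcripts, and the part of muscle was not tested. Dkk2 had a log2 fold change of 2.85 ± 0.76 in IWAT against EWAT (edgeR adjusted p = 0.0429). It was larger in RWAT against EWAT, at 4.09 ± 0.79, but did not pass there (edgeR adjusted p = 0.406), where 0.00528% of all genes tested passed.

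Dkk3, a divergent relative whose effect on Wnt signalling is less settled, was at 7.40 to 15.7 CPM in BAT, 4.93 to 10.3 CPM in RWAT, 2.87 to 6.88 CPM in IWAT and 5.42 to 12.6 CPM in EWAT. It passed in no comparison. Wif1, a Wnt-binding protein, did not exceed 0.711 CPM in any library. Dkk3 made up 88.2 ± 5.5% of the summed TPM of the Dkk genes and Wif1 in EWAT, and Dkk2 made up 66.6 ± 16.9% in RWAT.

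**Figure D4:**
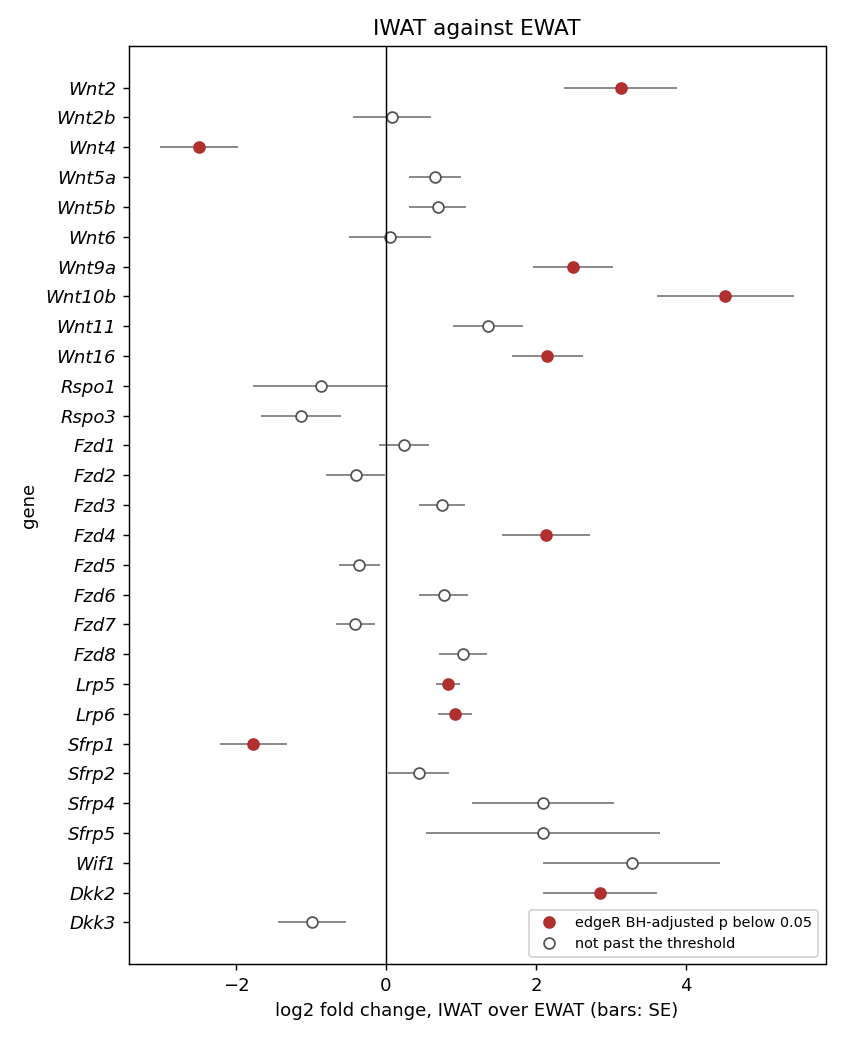
Log2 fold change of the 29 tested members in IWAT over EWAT (points; bars are the SE of the fit), ordered by role, with filled points for an edgeR adjusted p under 0.05. Wnt10b lies farthest to the right (4.52) and Wnt4 farthest to the left (−2.49); the Wif1 estimate rests on 2 counts in EWAT.

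Taking the 29 tested members in IWAT against EWAT, the median log2 fold change was 0.75, beside 0.02 over all genes tested. The libraries of the depots did not overlap in CPM for 13 of the 29 (11 higher and 2 lower), beside 32.4% of all genes tested. At an unadjusted p under 0.05, 14 members were higher and 2 lower, beside 29.7% of all genes tested in either direction. The 10 calls depended on single libraries: none remained past the threshold without IWAT 1, IWAT 2 or EWAT 3, when 45, 16 and 121 of all genes passed in place of 1710. Without EWAT 1, 3 of the 10 remained (Wnt4, Wnt9a and Lrp5), when 434 of all genes passed. Without EWAT 1 and BAT 2, the libraries with the fewest adipocyte transcripts, 5 members and 733 of all genes passed. The 5 were Wnt4, Wnt9a, Lrp5 and Sfrp1, with Wnt5a, which was not among the 10. Without RWAT 1 and RWAT 3, the libraries with muscle transcripts, 7 members and 759 of all genes passed. Of the 10, Fzd4, Lrp6, Sfrp1 and Dkk2 lost the call there, so the 7 include a member outside the 10.

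Markers of other cells moved with this comparison. Mesothelial markers summed to 13.1 to 20.3 CPM in the IWAT libraries and 76.9 to 204 CPM in the EWAT libraries, and 8 of 14 passed as lower in IWAT. Of 11 progenitor markers, 7 passed as higher in IWAT, with sums of 8177 to 12245 CPM in IWAT and 7201 to 12541 CPM in EWAT. Col1a1 and Col3a1 made up most of these sums, at 1388 and 4484 CPM in IWAT 1 and 7194 and 4894 CPM in EWAT 1. The sums therefore say little about the other progenitor markers. Adipocyte markers summed to 18911 to 34074 CPM in IWAT and 1494 to 10958 CPM in EWAT, and 0 of 10 passed. Mural cell markers summed to 379 to 574 CPM in IWAT and 638 to 1565 CPM in EWAT, and 3 of 9 passed as lower in IWAT. Of 9 Schwann cell markers 3 passed as higher and 1 as lower, and of 6 lymphatic markers 2 as higher and 1 as lower, with sums that overlapped between the depots. Macrophage markers had 1 call in each direction of 9, brown adipocyte markers 1 higher of 8 tested, endothelial markers 1 higher of 8, B cell markers 1 lower of 7 and keratinocyte or mammary markers 1 lower of 5 tested. None of the mesothelial, progenitor, adipocyte or mural markers of these lists was at 0 throughout either depot. Epididymal epithelium markers summed to at most 1.24 CPM in any library. The part of other cell types in the differences of the Wnt genes was not tested.

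In the comparisons with no member past the threshold, the smallest adjusted p belonged to Wnt16 in BAT against IWAT (edgeR, 0.289) and in BAT against RWAT (0.991), to Dkk2 in RWAT against EWAT (0.406) and to Lrp5 in RWAT against IWAT (0.125). The background was 0.0264% of all genes tested in BAT against IWAT, 0.0158% in BAT against RWAT, 0.00528% in RWAT against EWAT and 0% in RWAT against IWAT. At an unadjusted p under 0.05 there were 6 members in BAT against IWAT (12.4% of all genes tested), 7 in BAT against RWAT (4.36%), 8 in RWAT against EWAT (4.52%) and 9 in RWAT against IWAT (19.8%). All 9 in RWAT against IWAT were lower in RWAT: Wnt5a, Wnt5b, Wnt10b, Wnt11, Fzd3, Fzd4, Fzd8, Lrp5 and Lrp6. The 19.8% of all genes counts both directions. In BAT against EWAT, where Wnt16 passed, 14 members had an unadjusted edgeR p under 0.05 (10 higher and 4 lower). That stands beside 9.41% of all genes tested in either direction. DESeq2 called 0 members in BAT against IWAT (1.69% of all genes tested) and 1 in BAT against RWAT, Wnt16 (0.238%). It called 1 in RWAT against EWAT, Dkk2 (0.686%), and Lrp5, Wnt5b and Fzd8 in RWAT against IWAT (6.07%). Limma-voom called 0 in each.

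In CPM, the libraries did not overlap for 12 members in BAT against EWAT (10.6% of all genes tested), 6 in BAT against IWAT (16.3%) and 7 in BAT against RWAT (8.52%). The counts were 8 in RWAT against EWAT (7.73%) and 7 in RWAT against IWAT (26.2%). The comparisons share libraries, so their values are given side by side only.

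Beyond the members, 89 further genes of the pathway were read in 7 lists, of which 83 were tested. In IWAT against EWAT 11 of them passed, 9 higher and 2 lower, and in the other comparisons none did. By list, 3 of 15 tested secreted or membrane modulators passed (3 higher), 2 of 19 genes of alternative receptors and planar polarity (1 higher, 1 lower) and 1 of 20 genes of β-catenin transduction (higher). Of the TCF/LEF factors and co-factors 3 of 13 passed (3 higher), and of the genes known as β-catenin targets 3 of 17 (2 higher, 1 lower), with Axin2 in both the transduction and the target list. None passed of 2 tested genes of Wnt secretion or of 5 R-spondin receptors and Frizzled ubiquitin ligases. These shares can be read against 9.03% of all genes tested.

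**Figure D5:**
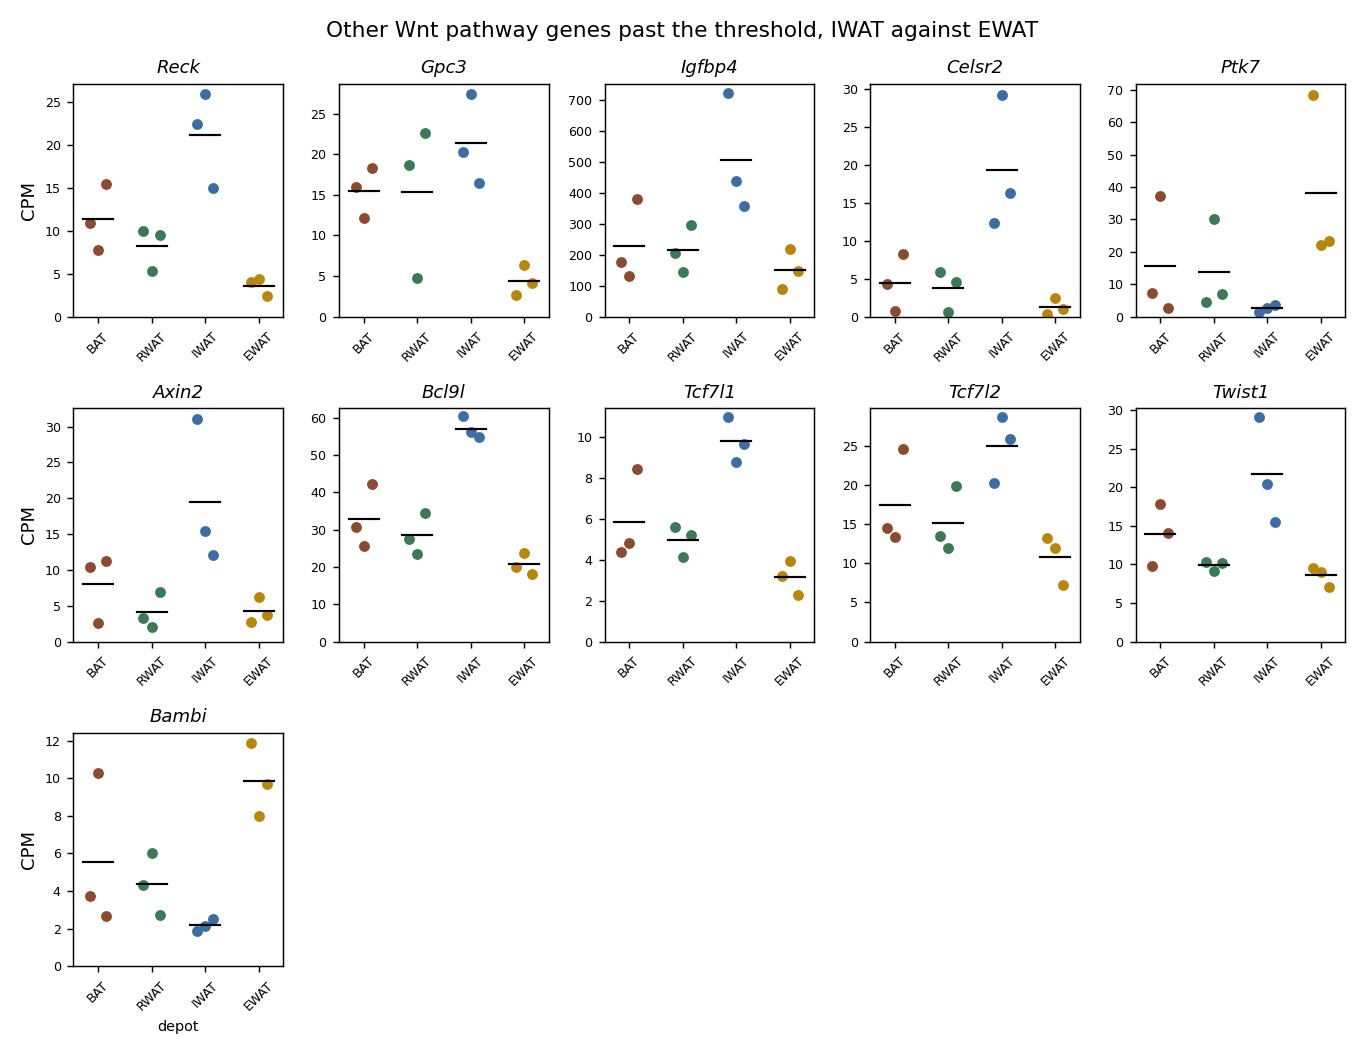
CPM of the 11 further pathway genes past the threshold in IWAT against EWAT, with 1 point per library, a bar for the depot mean and an axis from 0 for each gene. The IWAT libraries are above all EWAT libraries for the 9 genes that were higher and below them for Ptk7 and Bambi.

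Axin2, a scaffold of the β-catenin destruction complex and a target often read as a sign of β-catenin activity, was higher in IWAT. It was at 31.1, 15.4 and 12.1 CPM in IWAT 1 to 3, against 2.76, 6.27 and 3.66 CPM in EWAT 1 to 3, with no overlap (log2 fold change 2.21 ± 0.62, edgeR adjusted p = 0.0494). In BAT 1 to 3 it was at 10.4, 2.53 and 11.2 CPM, and in RWAT 1 to 3 at 3.33, 2.04 and 6.89 CPM. With 1 library left out, Axin2 kept the call only where that library was BAT 2, BAT 3, RWAT 3 or IWAT 3.

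Bcl9l, a co-activator of β-catenin, was at 60.4, 56.1 and 54.7 CPM in IWAT 1 to 3, against 20.1, 23.8 and 18.2 CPM in EWAT 1 to 3. The libraries of each depot were close together (log2 fold change 1.46 ± 0.22, edgeR adjusted p = 0.0121). Tcf7l1 and Tcf7l2, DNA-binding partners of β-catenin, were higher by 1.64 ± 0.31 and 1.21 ± 0.32 (edgeR adjusted p = 0.0199 and 0.041). Tcf7l2 falls outside the naming rule and was named after its value was seen.

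Reck, a membrane protein that takes part in Wnt7 reception and restrains metalloproteinases, was at 22.5, 25.9 and 15 CPM in IWAT 1 to 3, against 4.04, 4.45 and 2.39 CPM in EWAT 1 to 3. The depots were well apart, with a log2 fold change of 2.54 ± 0.37 (edgeR adjusted p = 0.0114). Gpc3, a glypican that binds Wnt proteins, and Igfbp4, a growth factor binding protein that can also block Frizzled and LRP6, were higher by 2.28 ± 0.51 and 1.74 ± 0.47 (edgeR adjusted p = 0.0286 and 0.0448).

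The planar polarity cadherin Celsr2 was at 12.3, 29.2 and 16.3 CPM in IWAT 1 to 3, against 0.333, 2.45 and 0.976 CPM in EWAT 1 to 3 (log2 fold change 3.95 ± 1.00, edgeR adjusted p = 0.0382). Ptk7, a pseudokinase co-receptor of the same branch, went the other way, at 1.5, 2.81 and 3.59 CPM in IWAT 1 to 3, against 68.5, 22.2 and 23.2 CPM in EWAT 1 to 3 (−3.84 ± 1.02, edgeR adjusted p = 0.043). Neither gene's libraries overlapped, and EWAT 1 was the highest library for Ptk7. Of the target list, Twist1, a transcription factor of mesenchymal cells, was higher by 1.34 ± 0.28 and Bambi, a pseudoreceptor for TGF-β signals, was lower, at −2.17 ± 0.49 (edgeR adjusted p = 0.0226 and 0.0284).

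Other listed genes with small p did not pass. Porcn, the enzyme that attaches the lipid to Wnt proteins, was at 6.66, 6.15 and 8.94 CPM in IWAT 1 to 3, against 2.05, 3.36 and 2.15 CPM in EWAT 1 to 3 (log2 fold change 1.52 ± 0.44, edgeR adjusted p = 0.0535). Ror1, a receptor for Wnt5a, was at 4.90 to 8.58 CPM in IWAT and 11.4 to 18.3 CPM in EWAT (−1.17 ± 0.35, edgeR adjusted p = 0.0555). Lgr6, an R-spondin receptor, was at 36.9 CPM in BAT 1 and at most 1.42 CPM in every other library. Wls, the carrier of Wnt proteins to the cell surface, was at 84.6 to 145 CPM over all libraries. Znrf3, a ubiquitin ligase that removes Frizzled from the cell surface, was at 10.9 to 13.1 CPM in IWAT and 6.67 to 9.08 CPM in EWAT (0.65 ± 0.23, edgeR adjusted p = 0.0889). Apc, of the β-catenin destruction complex, was at 144 to 157 CPM in IWAT and 99.7 to 110 CPM in EWAT (0.52 ± 0.18, edgeR adjusted p = 0.0852). For both genes the IWAT libraries lay above the EWAT libraries.

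Lgr5, an R-spondin receptor, was at 0.109 to 0.851 CPM in BAT and 0.98 to 3.33 CPM in IWAT. Btrc, which marks β-catenin for destruction, was at 12.4 to 14.1 CPM in BAT and 16.4 to 18 CPM in IWAT. Tle1, a co-repressor of TCF/LEF factors, was at 14.8 to 18.3 CPM in RWAT and 24.6 to 30.9 CPM in IWAT. None of these genes passed in any comparison, and IWAT did not overlap with the other depot named.

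The count of 11 pathway genes also depended on single libraries. It was 0 without IWAT 2, 1 without IWAT 1 (Reck), 2 without EWAT 1 or EWAT 3 (Bcl9l and Reck both times), 6 without BAT 1 or RWAT 1 and 17 without BAT 3. Among all genes, 16, 45, 434, 121, 1276, 1000 and 2088 passed in these fits, in that order, in place of 1710. Without EWAT 1 and BAT 2 the count of pathway genes was 5 (733 of all genes), and without RWAT 1 and RWAT 3 it was 7 (759 of all genes). With the replicate block it was 6, and Axin2, Celsr2, Gpc3, Igfbp4, Ptk7 and Tcf7l2 lost the call.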

How the data were processed

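Per the submitters' processing notes, reads (75 bp, single-end per the labels) went through Trimmomatic 0.36, RSEM 1.3.0 and DESeq2 1.10.1, with the build GRCm38.p4. The aligner, strand setting and annotation release are not given in the sources used here. Deposited tables hold, per the file headers, an expected count (an estimated read count) and a TPM per gene. Here expected counts were rounded, filtered with filterByExpr (minimum count 10) and TMM-scaled. One edgeR 4.0.16 quasi-likelihood model of all 12 libraries gave the 7 comparisons (biological coefficient of variation 0.385, R 4.3.3). The method was tested on simulated data. Alternatives were DESeq2 1.42.0, limma 3.58.1 (voom, and log2 TPM with pseudocounts of 0.1 and 0.5), RLE and upper-quartile factors, other filters, fewer libraries and a replicate block. A robust fit and TPM rescaled without 5 small RNAs were chosen after seeing the data. Same-numbered libraries deviated together in BAT and RWAT only (correlations 0.182, 0.429 and 0.199), and no label ties a number to an animal.

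Described with values were members past the threshold, the 3 with the highest mean TPM per role, and in each comparison up to 3 without overlap in TPM; of each pathway list, the 3 with the smallest p. Members and lists were chosen with earlier results of these data known. Depth was 12933516 to 21106554 counts per library, and floors cover counting error only. Positions are from GENCODE M21 and promoters from RefSeq (GRCm38.p6), which held 28 of 44 members.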

Additional observations from a re-analysis of the deposited data

How the results depend on the processing

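Each count of members past the threshold was recomputed under 27 alternatives. In BAT against IWAT it stayed 0 in all of them. It was 0 in BAT against RWAT, RWAT against EWAT and RWAT against IWAT in 26 of 27, with 1, 1 and 3 under DESeq2. In IWAT against EWAT, 18 alternatives gave within 1.5 times the 10 calls. It was 6 with limma on log2(TPM + 0.1) and on log2(TPM + 0.5), where 1445 and 1422 of all genes passed in place of 1710. Wnt16, Lrp5, Lrp6, Sfrp1 and Dkk2 lost the call in both of these fits, so the 6 include a member outside the 10. The count was 5 on the rescaled TPM (1302 of all genes), 3 with the replicate block (639) and 5 without EWAT 1 and BAT 2 (733). With 1 library left out it was 0 to 11. In BAT against EWAT the count of 1 became 5 under DESeq2, where 477 of all genes passed in place of 16. It was 0 under the 3 limma fits of TPM, in the fit of only these depots, with the replicate block and without EWAT 1 and BAT 2 together, and 0 to 1 with 1 library left out. In BAT against the white depots together it was 0 under the same TPM fits, limma-voom, the replicate block and without RWAT 1 and RWAT 3, and 0 to 1 with 1 library left out. The cause of these changes was not tested. In BAT against RWAT, the depots whose same-numbered libraries deviate together, the block left the count at 0.

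Outside the members, 11 further pathway genes were called in IWAT against EWAT, where 1710 of all genes passed. The count became 25 under DESeq2 (3780 of all genes) and 7 on the rescaled TPM (1302 of all genes). The 3 TPM fits called none as lower, so that Ptk7 and Bambi lost the call, and Axin2 lost it under the robust fit and with upper-quartile factors.

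The log2 fold changes of 26 pairs of a member and a comparison were followed through the alternatives, and none of these reversed its sign. These pairs were those named by the rule as called or as without overlap in TPM in these same data. That choice favoured a kept sign in advance, so no conclusion is drawn from it. The other pairs were not followed. Of the 27 alternatives, Wnt4 in IWAT against EWAT kept its call in 24, Wnt9a in 23, Wnt10b in 22, Lrp5 in 20, Wnt2 in 19, Wnt16 in 18, Fzd4 and Sfrp1 in 16, Lrp6 in 14 and Dkk2 in 12. Wnt16 kept it in 16 in BAT against EWAT and in 11 in BAT against the white depots. The filter on low counts kept 15 members out of the tests, and the EWAT levels of Wnt16 and Wnt10b rest on 4 to 9 counts per library.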
